A study of Mus musculus with 26 samples.

Results

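Mouse gastruloids with and without Ins(CBS5-10) at the HoxB cluster were compared at 120 h after aggregation. Both lines carry HoxB Del/Del(i9-13). Del stands for the line labelled with that allele alone, and Ins for the line that carries Ins(CBS5-10) as well. The 6 libraries compared (3 of each line) were taken by genotype and stage from 26 in the series. Ins(CBS5-10) is thus the only labelled difference between them. The labels do not spell out i9-13 or CBS. The labels do not say whether a line is 1 clone, nor whether replicates came from separate cultures. No line with an unedited HoxB cluster was analysed here. Replicates 1 and 2 of each line carry the library label ISML_first and replicate 3 carries ISML_second, and the comparison was blocked by that label.

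Gastruloids are made by letting small groups of mouse embryonic stem cells aggregate. They grow out along an axis and lay down trunk and tail tissues of the embryo. The HoxB cluster is a row of genes for homeodomain transcription factors that are switched on in order along the cluster during axial growth. Hoxb13 stands at its late, 5' end, apart from the other members, and its product is known to restrain tail growth. CTCF is a DNA-binding protein that, with cohesin, forms chromatin loop boundaries that can insulate a gene from its neighbours. The study's stated subject is how CTCF insulates Hoxb13, and the comparison asks which transcripts differ when Ins(CBS5-10) is present.

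Between Hoxb13 and Hoxb9 lies Mir196a-1, a microRNA gene whose hairpin spans chromosome 11, 96265164 to 96265265 (mm10). It is shown because it had counts in every Del library and none in any Ins library. Its mature sequences, on the plus strand, are given 5' to 3' from RefSeq (GRCm38.p6), with the seed (bases 2 to 8) in capitals.
mmu-miR-196a-5p (chr11:96265187-96265208): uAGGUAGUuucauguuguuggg
mmu-miR-196a-1-3p (chr11:96265225-96265246): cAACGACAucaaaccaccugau
The same 5p seed occurs in 3 mouse miRNA genes, Mir196a-1, Mir196a-2 on chromosome 15 and Mir196b on chromosome 6. Mir196a-2 gives the same mature 5p sequence, and Mir196b gives a close relative.
mmu-miR-196b-5p: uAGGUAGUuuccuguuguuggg
The miR-196 family is known to act on Hox transcripts. The libraries hold polyadenylated RNA, so counts over a hairpin come from longer transcripts and do not measure the mature miRNA.

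Total counts ran from 23529964 to 26385016 in Del and from 20940093 to 28759692 in Ins. At these depths the limit that a count of 0 allows, 3 counts, is 0.106 to 0.137 CPM (CPM being counts scaled to a common depth with the TMM-adjusted library size), which covers counting error only. Between 38.3% and 40.8% of the listed genes had counts, and mitochondrial genes took 0.915% to 1.51%. Markers of the tissues that gastruloids form were present: the tailbud gene T had 56.9 ± 18.9 CPM in Del and 61.9 ± 21.1 in Ins (SD, n = 3 each), and the somite gene Meox1 had 511 ± 60.3 and 566 ± 34.3. The neural progenitor gene Sox2 had 96.0 ± 16.6 and 104 ± 59.0 CPM. The replicates 1 of both lines were alike, as were the replicates 3: the chi-square of their counts per degree of freedom was 4.32 and 4.17, against 15.3 to 52.8 between replicates of 1 line. The replicates 2 differed by 18.6, within that range. In a principal component analysis of the 6 libraries the first component held 58.9% of the variance and set both replicates 3 apart from the rest.

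Hoxb13 was the 1 gene that passed the adjusted threshold of 0.05 between the lines in the main fit. It was expressed in every Del library and was low in every Ins library, near the limit of 3 counts only in replicate 3. The gene (ENSMUSG00000049604) lies on chromosome 11 from 96194316 to 96197447 in mm10 coordinates of the deposited table. Del replicates 1 to 3 had 66.0, 84.9 and 31.9 CPM, from 1716, 1920 and 796 counts. Ins replicates 1 to 3 had 1.02, 1.08 and 0.275 CPM, from 29, 29 and 6 counts. The lowest Del library was thus far above the highest Ins library, and replicate 3 was the lowest of both lines. The means were 60.9 ± 26.9 CPM in Del and 0.792 ± 0.449 in Ins (SD, n = 3 each), a ratio of 76.9. Between libraries of the same replicate number the ratios were 64.6, 78.7 and 116.

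In the fit of the 6 libraries Hoxb13 fell by 6.26 ± 0.17 (log2 fold change ± SE, 95% interval -6.67 to -5.86, edgeR quasi-likelihood test with Benjamini-Hochberg adjustment, adjusted p = 1.24e-05). It was 1 of 15378 genes tested, and it was the 1 gene that passed the threshold of 0.05 (0.0065%). An exact permutation test of Hoxb13 alone, two-sided, gave p = 0.1 over the 20 splits of 3 against 3, which is the smallest that design allows, and 0.167, again the smallest, over the 12 splits that keep the library labels. With the replicate number as a block in place of the library label, 2 genes passed (edgeR adjusted p = 2.51e-07 for Hoxb13). The other was Cdh6, a cell adhesion cadherin, at -0.89 (adjusted p = 0.0244). Without a library term no gene passed: Hoxb13 lay at -6.21 with adjusted p = 0.102, and 82 genes had an unadjusted p under 0.05. In bulk samples fewer cells that express a gene and less of its RNA per cell cannot be told apart.

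Read per length, on the deposited FPKM, Hoxb13 ranked second of the 10 HoxB genes in Del and last in Ins. Its level was 22.9 ± 9.76 FPKM in Del, below Hoxb9 (65.2 ± 11.2) and above Hoxb1 (18.4 ± 4.19). In Ins it was 0.302 ± 0.167 FPKM, below Hoxb5 (2.28 ± 0.395), the next lowest. The SDs of Hoxb13 and Hoxb1 in Del overlap, so the order of these neighbours is not settled by their spread.

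Mir196a-1 shared the pattern at a low level. It had 25, 21 and 7 counts in the Del libraries and 0, 0 and 0 in the Ins libraries. In CPM these are 0.962, 0.929 and 0.280 against values under the limit of each Ins library. Summed over the groups, 53 against 0 counts gave a Del to Ins ratio of 18.5 with 3 counts set as the floor of the Ins sum. That floor covers the counting error of the Ins sum only. The error of the 53 counts and the spread between libraries are left out, so the ratio is no lower bound. It did not pass over all genes (unadjusted p = 2.73e-04, edgeR adjusted p = 1.00). It passed with DESeq2 (adjusted p = 0.0246) and with no filter on low counts (edgeR adjusted p = 4.43e-06). Mir196a-2 and Mir196b were too low to be tested, with at most 3 and 5 counts in a library.

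Hoxb1 to Hoxb9, the members of the cluster on the other side of Mir196a-1, were similar in level in both lines. Their fitted differences ran from -0.05 (Hoxb4) to 0.33 (Hoxb6) on the log2 scale, 8 of 9 were above 0, and in all 9 the groups overlapped. None passed, and the smallest unadjusted p was 0.125 (Hoxb9). The 95% intervals reached from -0.38 (Hoxb7) to 0.80 (Hoxb6), so the data allow differences of that size and the fit does not show equality. Hoxb9, the nearest and most abundant, had 227, 220 and 161 CPM in Del and 263, 369 and 152 in Ins. Ins replicate 2 was the highest of these 6 values, and both replicates 3 were the lowest. Hoxb8 had 48.8, 39.1 and 50.1 CPM in Del and 55.1, 54.3 and 43.0 in Ins, with overlap. Hoxb1, the earliest gene of the cluster to be expressed, had 62.1, 48.1 and 39.7 CPM in Del against 63.1, 48.3 and 40.2 in Ins, nearly the same value at each replicate number. The direction rested on the ISML_first libraries: between the ISML_second libraries 8 of the 9 genes lay below 0, Hoxb1 being the exception.

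**Figure D1:**
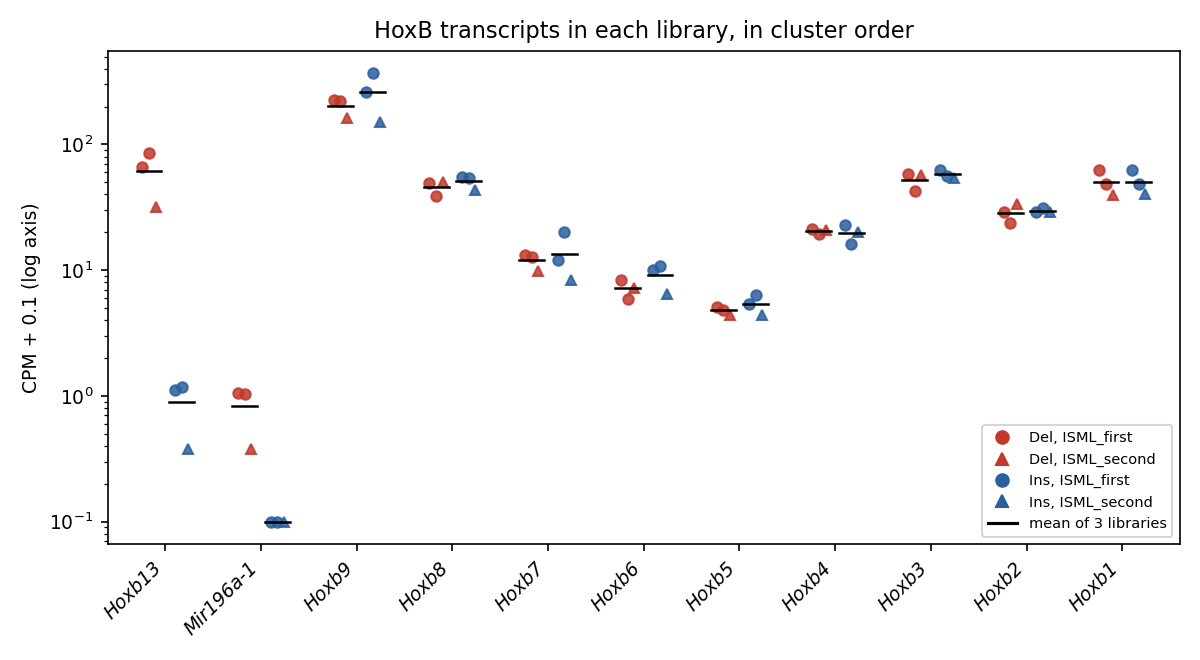
CPM plus 0.1 (log axis) of Hoxb13, Mir196a-1 and Hoxb9 to Hoxb1 in each library, with Del in red, Ins in blue, circles for ISML_first, triangles for ISML_second and bars for the mean of 3 libraries. Hoxb13 runs from 31.9 to 84.9 CPM in Del and from 0.275 to 1.08 in Ins, Mir196a-1 has no counts in Ins, and the groups overlap for Hoxb1 to Hoxb9.

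The neighbourhood of the cluster was read by distance from the start of Hoxb13. Besides Hoxb13, 47 genes were tested within 1 Mb. None passed, their median difference was -0.01, and 42 lay within 0.5 of 0. An unadjusted p under 0.05 was reached by 3 lower genes (1.07% of all genes tested) and 0 higher ones (0.54% of all genes tested): Mir196a-1, Nxph3 and Ngfr. In 4 of the 47 the groups did not overlap, against 3.21% of all genes tested. Atp5g1, which encodes a subunit of the mitochondrial ATP synthase and is the nearest tested gene on the side away from the cluster, starts 125 kb before Hoxb13. It had 98.6, 99.0 and 87.9 CPM in Del and 94.6, 116 and 84.0 in Ins, a difference of 0.04 ± 0.09.

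Nxph3, which encodes the secreted neurexin ligand neurexophilin 3, starts 684 kb before Hoxb13 (chromosome 11, 95509845 to 95514570). It had 3.12, 7.07 and 3.44 CPM in Del and 0.740, 1.75 and 0.458 in Ins. All 3 Ins libraries lay below all 3 Del libraries, with a difference of -2.26 ± 0.47 (unadjusted p = 0.00208). Ngfr, the low-affinity neurotrophin receptor, starts 625 kb before Hoxb13. It had 27.7, 20.8 and 16.8 CPM in Del and 15.1, 13.0 and 14.0 in Ins, again without overlap, with a difference of -0.62 ± 0.16 (unadjusted p = 0.00562). Neither passed over all genes.

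**Figure D2:**
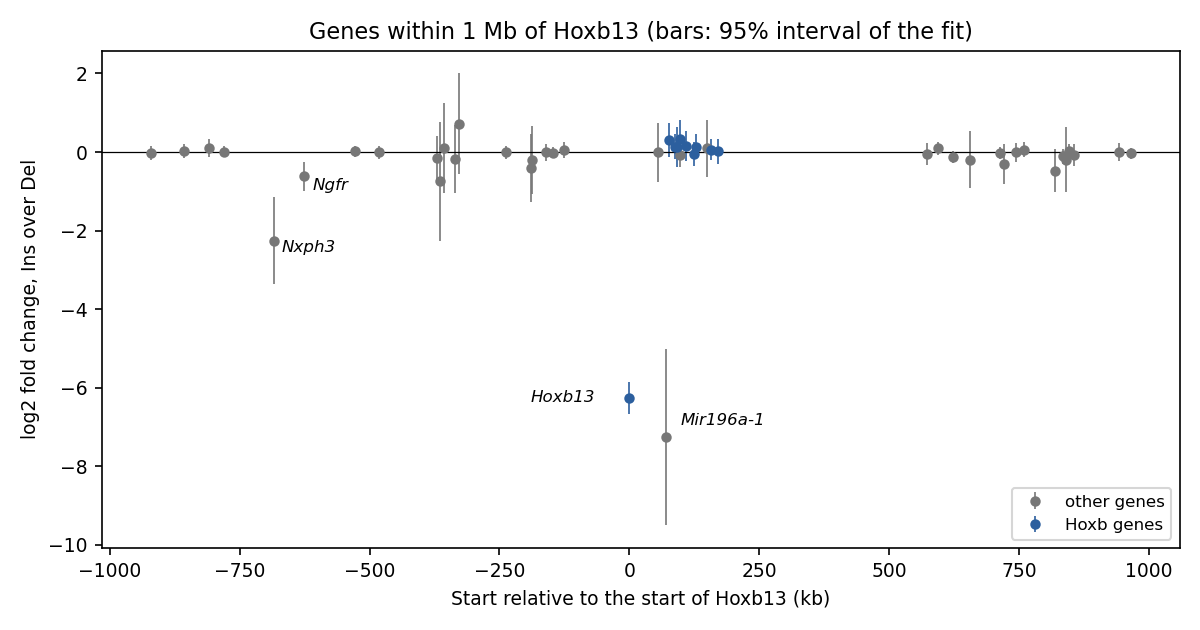
Log2 fold change of Ins over Del (bars: 95% interval of the fit) against the distance of each gene's start from the start of Hoxb13 in kb, for the genes tested within 1 Mb. Hoxb13 (-6.26) and Mir196a-1, whose fitted value depends on the prior count, lie far below the rest, Nxph3 (-2.26) and Ngfr (-0.62) are the next named points, and 42 of the 47 genes besides Hoxb13 lie within 0.5 of 0.

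Across all genes the lines differed little. The median size of the difference was 0.0724 on the log2 scale for the genotype and 0.227 between the library labels in the same fit. Of 12998 genes with a mean of at least 1 CPM, 12570 differed by under 0.5 between the lines. An unadjusted p under 0.05 was reached by 247 genes (1.61%), 83 higher and 164 lower in Ins, fewer than the 5% that evenly spread p-values would hold. With the replicate number as the block in place of the label, 550 of 15378 genes reached it. The count thus changed with the block, and it stayed under that 5% with either one. The cause of the shortfall was not tested, and it is no measure of a lack of difference. The groups did not overlap in 493 genes (3.21%), 247 higher and 246 lower. Between the library labels 2421 genes differed (15.7%), 1263 higher (8.21%) and 1158 lower (7.53%) in ISML_second. Leaving out either replicate 3 left 1 library under ISML_second and 43 such genes. The label is the same split as replicate 3 against replicates 1 and 2, so label and replicate cannot be told apart. Hoxb13 itself was lower under ISML_second by 1.31 ± 0.17 (edgeR adjusted p = 0.00672). The difference between the lines did not pass a test of its interaction with the label for any of 16193 genes (edgeR, 150 or 0.926% at an unadjusted p under 0.05). For Hoxb13 the interaction was -0.67 ± 0.51. The interaction test rests on 1 library of each line under ISML_second and has 2 residual degrees of freedom. It therefore cannot show that the difference between the lines is the same under both labels. DESeq2 and limma also called 0 genes in that test, and edgeR with no filter called 10.

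**Figure D3:**
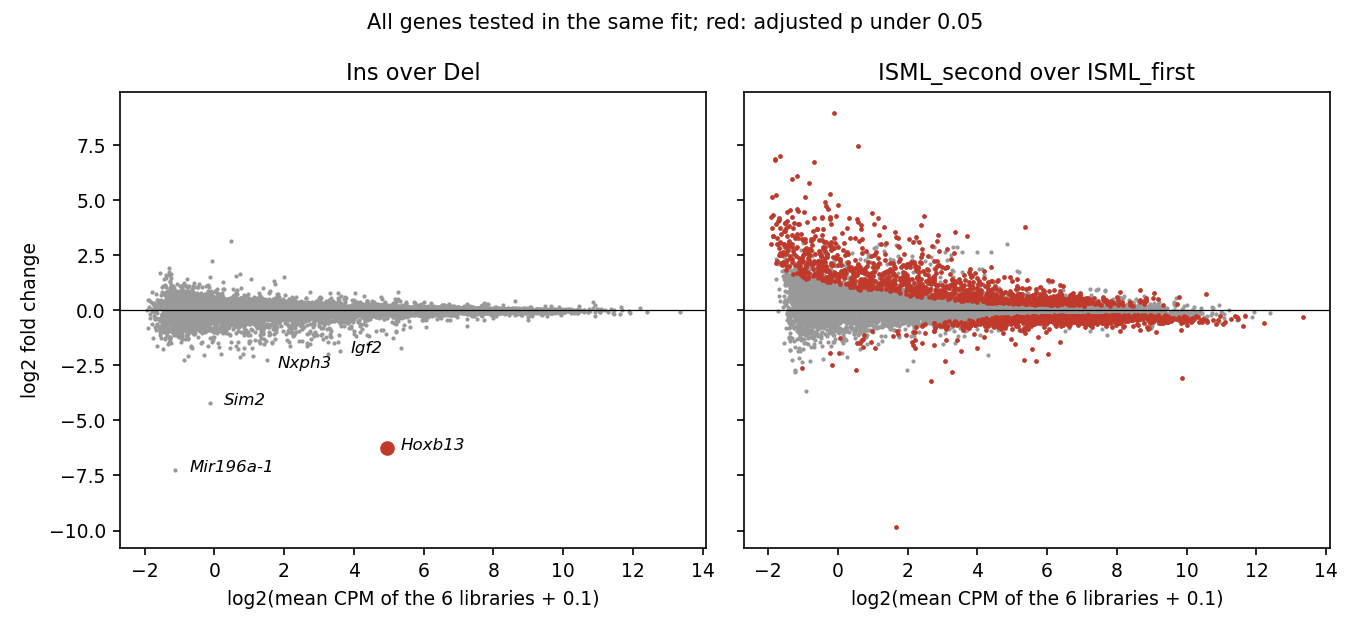
Log2 fold change of each gene tested against the log2 of its mean CPM plus 0.1, for Ins over Del (left) and for ISML_second over ISML_first (right) from the same fit, with genes at an adjusted p under 0.05 in red. Hoxb13 is the 1 red point of 15378 on the left, and 2421 points are red on the right.

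By rule, the 10 lower and 10 higher genes with the largest differences were taken among those with an unadjusted p under 0.05, at least 1 CPM on average, no overlap between the lines and 1 direction under both labels. This rule could take from 49 lower and 22 higher genes. The rule fixes the separation of the groups, so it is no support for these genes, and none but Hoxb13 passed over all genes. After Hoxb13 and Nxph3 the lower ones were Pitx1 (-2.11 ± 0.39), Gata3 (-2.06 ± 0.58), Igf2 (-1.84 ± 0.32), Igf2os (-1.60 ± 0.34), Kcnf1 (-1.43 ± 0.27), Mak (-0.95 ± 0.27), Wnt3 (-0.91 ± 0.31) and Vstm2l (-0.89 ± 0.25).

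Pitx1, a homeodomain factor of the hindlimb field, had 3.89, 1.72 and 2.04 CPM in Del against 0.775, 0.484 and 0.503 in Ins. Gata3, a zinc finger factor of the nephric duct and other tissues, had 1.96, 5.26 and 2.64 CPM against 0.634, 0.409 and 1.51. Kcnf1, a potassium channel subunit, had 8.58, 6.23 and 4.28 CPM against 2.75, 1.82 and 2.33. In each of these 3 genes every Ins library lay below every Del library.

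Igf2, the imprinted fetal growth factor, had 17.2, 12.7 and 26.7 CPM in Del and 6.77, 4.13 and 4.30 in Ins. Its difference was larger between the ISML_second libraries (-2.61) than between the ISML_first ones (-1.47). Igf2os overlaps Igf2, and the strand setting of the counting is not given, so reads of both cannot be told apart. It had 9.89, 7.34 and 10.9 CPM against 4.76, 2.60 and 2.01. H19, the imprinted RNA gene next to Igf2, chosen after its values were seen, was not separated: 1891, 2126 and 1899 CPM in Del against 1915, 1357 and 2412 in Ins, a difference of -0.08 ± 0.19.

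Wnt3, a secreted Wnt ligand of the early axis, had 1.39, 1.46 and 1.60 CPM in Del against 0.529, 0.856 and 1.01 in Ins. Mnx1, a homeodomain factor of motor neurons and notochord, was named through the neuronal list. It had 14.7, 14.5 and 19.2 CPM in Del and 9.13, 8.22 and 12.5 in Ins, a difference of -0.71 ± 0.11 (unadjusted p = 2.39e-04) without overlap. Sim2, a transcription factor gene chosen after its values were seen, had 46, 49 and 19 counts in Del against 0, 3 and 3 in Ins. Its groups did not overlap, and it fell below the mean of 1 CPM that the rule asks for.

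The higher genes differed by less. They were Mir100hg (1.02 ± 0.28), Apba1 (0.77 ± 0.31), Nav3 (0.61 ± 0.18), Hoxd9 (0.60 ± 0.17), Galnt17 (0.58 ± 0.23), Vipr2 (0.58 ± 0.25), Prdm16 (0.57 ± 0.23), Eldr (0.51 ± 0.22), Klf4 (0.50 ± 0.19) and Smim10l2a (0.44 ± 0.16). Mir100hg, the host transcript of a microRNA cluster, had 1.00, 1.28 and 0.840 CPM in Del against 1.97, 2.90 and 1.51 in Ins. Hoxd9, the HoxD paralog of Hoxb9, had 22.0, 18.0 and 25.0 CPM against 32.0, 39.4 and 27.5, with the smallest gap between the replicates 3. None of the higher genes passed (unadjusted p of 0.00768 for Mir100hg to 0.0486 for Vipr2).

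**Figure D4:**
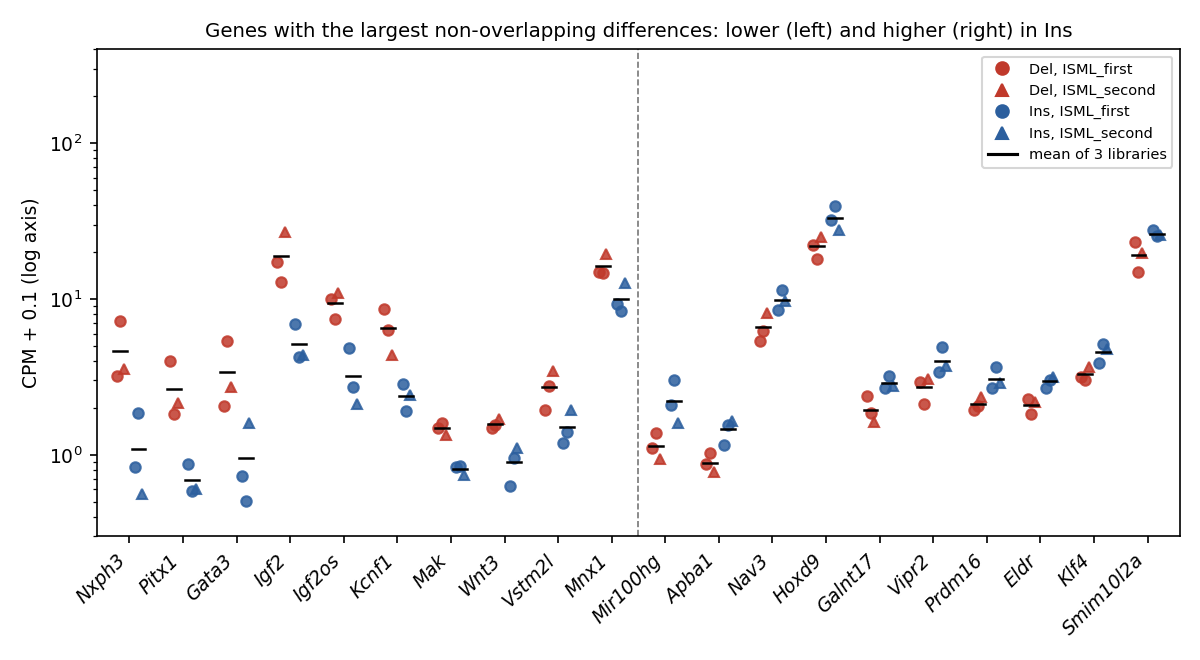
CPM plus 0.1 (log axis) in each library for the genes taken by the rule without Hoxb13, with Mnx1 added: lower in Ins left of the dashed line, higher right of it, Del in red, Ins in blue, circles for ISML_first, triangles for ISML_second and bars for the mean of 3 libraries. The Igf2 values run from 12.7 to 26.7 CPM in Del and from 4.13 to 6.77 in Ins, and the higher genes lie closer together, as Klf4 with 2.92 to 3.56 against 3.77 to 5.06.

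Gene lists of tissues and pathways were described by counts and medians, beside a median of -5.75e-04 over all genes tested, of which 7655 were above 0. With each library left out in turn, 16 of the 29 medians changed sign. No gene of any list passed other than Hoxb13. Tailbud and axial progenitor genes had a median of 0.15 (0.013 without Del replicate 2 to 0.35 without Del replicate 1), with 16 of 18 genes above 0 and 1 higher at an unadjusted p under 0.05 (0.54% of all genes tested). That gene was Cdx4, a caudal-type activator of Hox genes, with 83.2, 68.4 and 18.9 CPM in Del against 84.0, 108 and 25.3 in Ins (0.36 ± 0.12, unadjusted p = 0.0179). Both replicates 3 were low, and the lines overlapped. Presomitic genes had a median of 0.19 (-0.037 without Del replicate 2 to 0.49 without Del replicate 1) with 16 of 19 above 0, among them the mesoderm factor Tbx6 at 22.6 ± 11.4 CPM in Del and 33.5 ± 14.7 in Ins. Somite genes had a median of 0.12 (0.046 without Del replicate 2 to 0.23 without Del replicate 1), and dermomyotome genes one of 0.10 (0.014 without Del replicate 3 to 0.18 without Ins replicate 2).

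Of the posterior Hox genes of the other clusters 3 of 11 were tested, and their median was 0.67. That value rested on Ins replicate 2, without which it was -0.025: Hoxc10 had 13.2, 22.2 and 6.36 CPM in Del and 11.4, 59.0 and 5.63 in Ins, and without Ins replicate 2 its difference was -0.45 in place of 0.67. Hoxd10 had 0.808, 0.796 and 0.400 CPM in Del against 0.987, 5.06 and 0.595 in Ins. Of the 18 trunk Hox genes of these clusters Hoxd9 was the 1 with an unadjusted p under 0.05 (0.54% of all genes tested were higher at that level), and their median was 0.04 (-0.089 to 0.18 with a library left out).

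Endoderm and epithelial genes had the lowest median of the lists, -0.99 (-1.40 without either replicate 3 to -0.29 without Del replicate 2), with 15 of 17 below 0 (50.2% of all genes tested) and 3 lower at an unadjusted p under 0.05 (1.07% of all genes tested). Among these were the cell adhesion gene Epcam and the transcription factor gene Foxa2. Epcam had 18.2, 31.3 and 52.3 CPM in Del and 13.2, 8.26 and 40.5 in Ins (-0.90 ± 0.32, unadjusted p = 0.0327). Foxa2 had a mean of 9.26 ± 7.69 CPM against 4.98 ± 5.63. In both the lines overlapped, and no endoderm gene of the list was without overlap.

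The endoderm list differed more between the library labels than between the lines. Its median was 1.85 higher under ISML_second, and 6 of the 17 genes passed that test (8.21% of all genes tested), a test whose calls fell to 43 of all genes without either replicate 3. Within the labels the median difference between the lines was -1.23 in ISML_first and -0.18 in ISML_second. The summed level of the list was 217, 442 and 567 CPM in Del and 186, 127 and 493 in Ins. The lowest value is Ins replicate 2, and the highest are the replicates 3. The keratin gene Krt8 followed the same order, with 7.85, 25.8 and 33.7 CPM in Del against 7.65, 5.02 and 28.4 in Ins.

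Endothelial and blood genes (median -0.86, 14 tested), notochord and Hedgehog genes (-0.58, 11 tested) and intermediate mesoderm genes (-0.49, 8 tested) had medians below 0 as well. Without Del replicate 2 these were -0.06, -0.21 and -0.12, and without either replicate 3 they were -1.58, -0.82 and -0.73. Without Ins replicate 2 they were -0.51, -0.50 and -0.025. The endothelial median was -1.13 in ISML_first and 0.09 in ISML_second, and it was 2.53 higher under ISML_second than under ISML_first. The summed level of that list ran from 37.8 to 192 CPM in Del and from 25.3 to 214 in Ins, and 3 of its 20 entries, the embryonic globin genes Hbb-bh1, Hba-x and Hbb-y, had no counts in any of the 6 libraries. Kdr, the vascular endothelial growth factor receptor, had 3.69, 26.8 and 59.8 CPM in Del against 5.82, 3.65 and 72.6 in Ins, with no order of the lines. In intermediate mesoderm Gata3 was the 1 gene with an unadjusted p under 0.05 (1.07% of all genes tested were lower at that level). Cardiac genes had a median of -0.17 (-0.78 without either replicate 3 to 0.43 without Del replicate 2), and their members parted: Tnnt2, cardiac troponin T, lay at 1.66 ± 0.52 and Myh7, a myosin heavy chain, at -1.38 ± 0.57. The part of these cell type markers and of the library label in the other differences between the lines was not tested beyond the label term of the fit. For Hoxb13 the difference was -6.05 within ISML_first and -6.49 within ISML_second.

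No neural gene passed. Neural tube progenitor genes had a median of 0.13 (17 tested), and it was -0.50 without Ins replicate 2 and -0.17 without Del replicate 1. Neuronal genes had a median of -0.17 (11 tested), which was -0.57 without Ins replicate 3 and 0.015 without Ins replicate 1. With limma it was 0.036 and without a library term 0.046, so its direction is not settled. Among these genes were Mnx1 at -0.71 ± 0.11 and Elavl3, an RNA-binding protein gene of young neurons, at 0.99 ± 0.41. Neural crest genes had a median of 0.22 (6 tested; -0.12 without Ins replicate 2), with the receptor gene Erbb3 at -1.14 ± 0.38.

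Pluripotency and germ cell genes differed in opposite directions under the labels. Their median was -0.82 in ISML_first and 1.02 in ISML_second, and in the fit it was -0.08 (-0.98 without either replicate 3 to 0.52 without Del replicate 2). Pou5f1, the POU factor of pluripotent cells, had 2.92, 5.04 and 1.28 CPM in Del and 2.26, 1.75 and 6.27 in Ins, so that Ins was lower in replicates 1 and 2 and higher in replicate 3. Nanog had 1.31, 3.58 and 0.160 CPM against 0.916, 0.298 and 2.06, with the same order. The unadjusted p of the interaction with the label was 0.00110 for Pou5f1, 0.00136 for Zfp42 and 0.00612 for Nanog, and none passed over all genes (edgeR adjusted p = 1.00).

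No gene of the signalling and housekeeping lists passed. FGF response genes had a median of -0.08 with 12 of 14 below 0, and Dusp6, a phosphatase that damps this pathway, lay at -0.16 ± 0.06 (unadjusted p = 0.0340). Wnt response genes had a median of 0.08, with the cyclin gene Ccnd1 at -0.21 ± 0.07 and the Wnt inhibitor gene Wif1 at -1.09 ± 0.42, the members with an unadjusted p under 0.05 (1.07% of all genes tested were lower at that level). Retinoic acid genes (0.01), trunk-to-tail timing genes (-0.02), CTCF and cohesin genes (0.02), Polycomb and Trithorax genes (0.03) and immediate early genes (-0.01) had 0 such members each. Proliferation genes ran from -0.05 to 0.07. Hypoxia and glycolysis genes had a median of -0.26 with 15 of 16 below 0, and it was 0.010 without Del replicate 2, the highest library: the glucose transporter gene Slc2a3 had 518, 880 and 384 CPM in Del against 502, 459 and 324 in Ins. Mitochondrially encoded genes had a median of 0.14, with 7 of 10 above 0 and mt-Co3 lowest at -0.42. Of these, mt-Nd4 (0.21 ± 0.07) and mt-Cytb (0.23 ± 0.08) had an unadjusted p under 0.05 (0.54% of all genes tested were higher at that level). The lines overlapped in every member. The median of the list between the labels, ISML_second over ISML_first, was larger in size at -0.40.

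**Figure D5:**
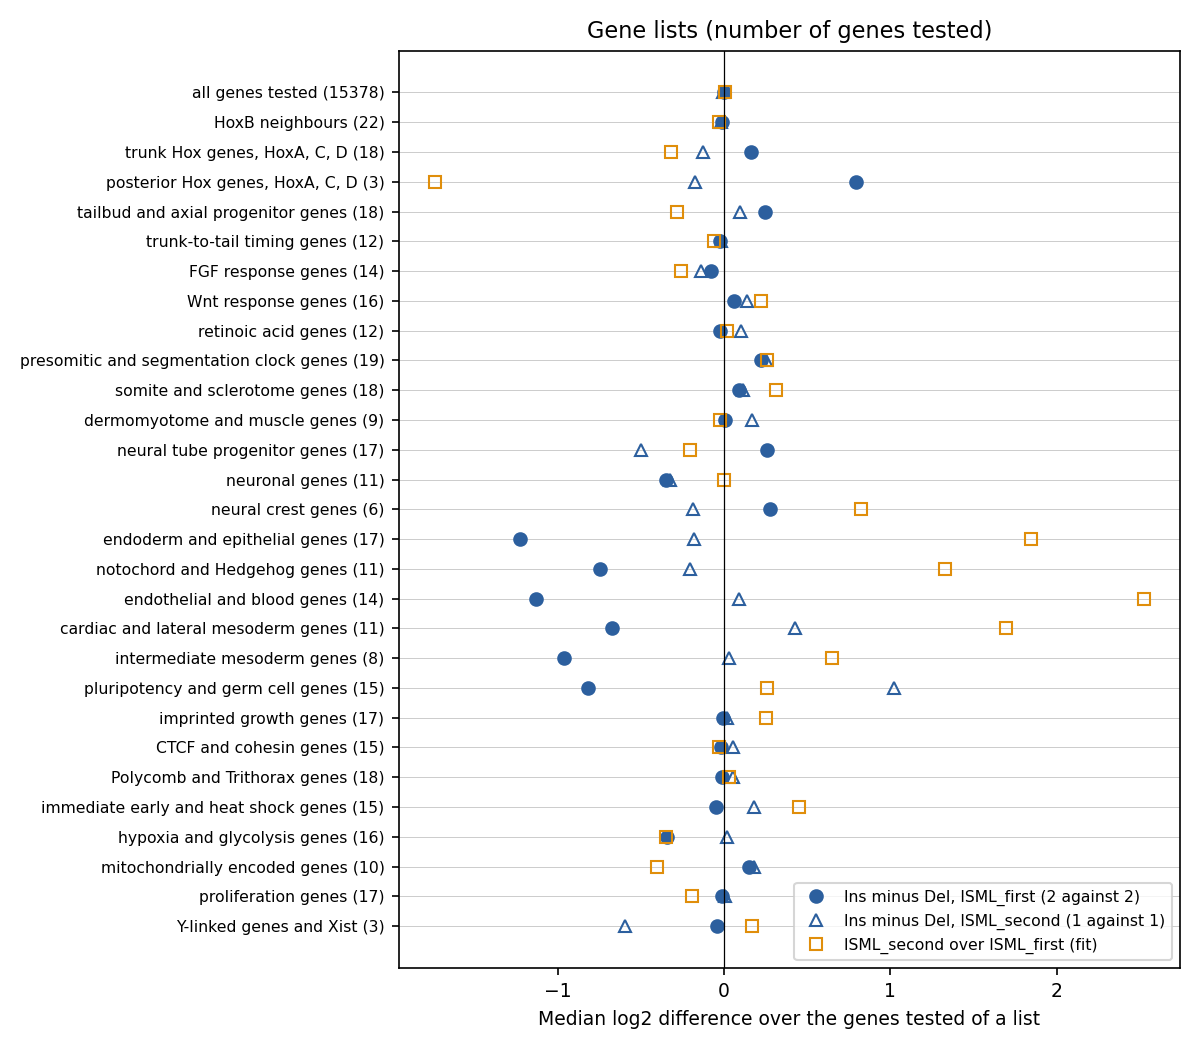
Median log2 difference of each gene list (number of genes tested in parentheses): Ins minus Del within ISML_first (filled circles) and within ISML_second (open triangles), and ISML_second over ISML_first from the fit (open squares). The endoderm list lies at -1.23 and -0.18 between the lines and at 1.85 between the labels, and the pluripotency list at -0.82 and 1.02 between the lines.

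Libraries that the comparison did not use were read for the same genes. At 144 h each line had 1 library, both ISML_second, so these values have no replicate check. They also differed in tissue markers, with a median difference of Ins from Del of 2.84 for pluripotency, 2.36 for cardiac, 1.40 for tailbud and 0.72 for FGF response genes, whose part in the values below was not tested. Hoxb13 was 16.5 CPM in Del (95% Poisson interval 14.9 to 18.3, counting error only) and 0.396 CPM in Ins (0.181 to 0.753), a ratio of 41.7. Mir196a-1 was at 0.0450 CPM in Del, under its limit, and had no counts in Ins. Igf2 had 15.2 CPM in Del against 4.01 in Ins, and Nxph3 had 4.10 against 1.28. Ngfr (20.4 and 20.3 CPM) and Mnx1 (14.9 and 14.1) were alike in these libraries. Of the genes taken by the rule, 9 of the 10 lower and 8 of the 10 higher kept their direction at 144 h, against 7926 of 15378 genes tested (51.5%). The lower genes include Hoxb13 and the overlapping Igf2 and Igf2os. Some of the kept directions rest on values near 0, such as Wnt3 (-0.07) and Galnt17 (0.05). The rule took large differences and the 51.5% covers all genes, so the 2 shares are not alike in kind. The direction of the pluripotency genes at 144 h was that of the ISML_second libraries at 120 h, with Pou5f1 at 0.855 CPM in Del and 9.12 in Ins.

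A second pair of lines, all of whose 120 h libraries carry the label ISML_third, was compared without a block. The labels of both hold HoxB Del/Del(i9-13) and Ins(CBS5-10). InvClone2 is the clone 2 that has Inv(CBS5-10) in addition. InsDel5to10 has Del(CBS5-10) in addition, read here as removal of the inserted segment. InsDel5to10 is thus taken as the line without CBS5-10, and InvClone2 as the line with it, inverted. Hoxb13 was 0.711 and 0.699 CPM in InvClone2 and 35.7 and 21.1 in InsDel5to10. It fell by 5.32 ± 0.35 (edgeR adjusted p = 0.00168), among 19 of 14907 genes that passed (0.127%), 15 of them lower in InvClone2 (0.101%). The lines of this pair also differed in Y-linked genes: Ddx3y, Uty and Eif2s3y had no counts in InvClone2 and 34.6 to 78.8 CPM in InsDel5to10, and all 3 were among the 15. In Del and Ins these genes were present in all 6 libraries, from 15.3 to 59.4 CPM. With limma Hoxb13 lay at -5.22 between the lines of this pair and did not pass (adjusted p = 0.0572). Mir196a-1 had no counts in InvClone2 and 1.15 and 0.719 CPM in InsDel5to10. Igf2 (3.91 and 4.70 CPM against 3.30 and 5.08) and Mnx1 (8.17 and 9.59 against 6.30 and 7.62) overlapped or lay the other way. Nxph3 had 1.07 and 0.582 CPM against 2.10 and 0.804, and overlapped. Ngfr had 12.9 and 9.08 CPM against 21.9 and 14.6, Gata3 had 0.577 and 0.932 against 1.90 and 1.78, and Kcnf1 had 3.82 and 2.21 against 10.7 and 4.36. These 3 were lower in both InvClone2 libraries, with differences of -0.73, -1.27 and -1.31 (edgeR unadjusted p = 0.0288, 0.0260 and 0.0357). None of the 3 passed (edgeR adjusted p = 0.498, 0.481 and 0.521). How many of all genes parted in this way in 2 against 2 libraries was not counted, so the separation is no support for them. Of the rule's lower genes 6 of the 9 tested there kept their direction, and of the higher ones 8 of 10, against 7669 of 14658 genes tested in both. Hoxb13 is among those 6, and here too the rule took large differences while the last count covers all genes. The lower genes that went the other way were Igf2 (0.04), Mak (0.02) and Wnt3 (0.43).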

How the data were processed

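Polyadenylated RNA of 6 libraries (Ins and Del, 3 each) was compared. The deposited counts are whole-number reads per gene, not normalized (55141 genes), and the deposited FPKM values are normalized by length and depth by the authors (55138 genes). The tools named in the submitters' processing notes are STAR 2.7.10a, cutadapt 1.18 and Cufflinks 2.2.1, on mm10. Annotation release, counting version and strand setting: not given in the sources used here. Of the tables' columns, 8 matched no sample and were not used.

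The test was that of edgeR 4.0.16 (R 4.3.3; robust quasi-likelihood F-test, TMM, minimum count 10, Benjamini-Hochberg over all 15378 genes, threshold 0.05), with terms for library label and line and 3 residual degrees of freedom. The labels do not say that replicates are separate cultures, so p-values measure only the spread between these 6 libraries, possibly a technical one. The members and the 29 gene lists were chosen with earlier results of these data known, and lists were given no test. The SE of a fitted difference was worked back from the test, as its size divided by the square root of the F statistic. The intervals of the fit were built from that SE, so both are approximate. Intervals of the fit include the spread between libraries, while Poisson intervals and the limit of 3 counts cover counting error only.

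Genes named by rule were the 10 HoxB genes, genes past the threshold, the 10 lower and 10 higher described in the text, in each list the most abundant member and the 2 with the smallest unadjusted p, and the 5 tested genes nearest Hoxb13 on each side. Not all are printed. Same-numbered libraries deviated together in all 3 pairs (correlations 0.602, 0.320 and 0.745). This is taken as pairing of replicates 1 and of replicates 3, from the data and not from the labels. For replicates 3 it cannot be told apart from their shared library label. Ins replicate 2 correlated slightly more with Del replicate 1 (0.349), so pairing of replicates 2 is not settled. Alternatives were DESeq2 1.42.0, limma 3.58.1 on counts and on log2(FPKM + 0.1), DESeq2 size factors, other filters, blocks and sets of libraries, and each library left out. The fit was also run on counts simulated from its own dispersion trend, with changes placed in well-counted genes only. It recovered 95 of 100 genes changed by 1 on the log2 scale and 100 of 100 changed by 3. It also called 8 unchanged genes. The simulation placed no changes in low genes and built in no outlying library, so its recovery does not carry over to these.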

Additional observations from a re-analysis of the deposited data

How the results depend on the processing

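The fold change of Hoxb13 kept its direction under every alternative run, and it passed under every one with a test but the fit without a library term (-6.21, adjusted p = 0.102). Over the alternatives its adjusted p ran from 6.69e-129 (DESeq2) to 0.102, and with a library left out from 8.18e-06 to 8.62e-04 at -6.42 to -6.14. The count of genes that passed was 1 under most alternatives, leaving out each library included (1 to 1). It was 9 with DESeq2, 13 with no filter on low counts, 0 without a library term and 2 with the replicate block. The 9 and 13 genes were all lower in Ins and shared 6, which is 66.7% and 46.2% of them. DESeq2 called Hoxb13, Mnx1, Nxph3, Igf2, Tvp23a, Kcnf1, Sim2, Mir196a-1 and Igf2os. The fit with no filter called Hoxb13, Ngfr, Mnx1, Pitx1, Lmx1b, Tvp23a, Kcnf1, Ezr, Sim2, Sema3e, Mir196a-1, Trp53i11 and the gene model Gm47071. Gm47071 overlaps Pitx1 in position, as Igf2os does Igf2, so without the strand setting these are not separate calls for certain. The causes of the differing counts of genes were not tested. Genes that differed with the label numbered 3643 with no filter, 409 in a fit of all 26 libraries, 5166 with limma on the FPKM and 43 to 2688 with a library left out. The interaction called 10 genes with no filter.

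Of the 29 list medians 18 changed sign under at least 1 alternative, 16 of them with a library left out. They included the neuronal (0.023 with a minimum count of 50), HoxB (-0.11 between the ISML_second libraries) and pluripotency lists (1.02 there). Single genes that changed sign had not passed. Between the ISML_second libraries alone, with no test, they were Hoxb2 (-0.20), Hoxb3 (-0.073), Hoxb5 (-0.0069), Hoxb6 (-0.14), Hoxb7 (-0.25), Hoxb8 (-0.22), Hoxb9 (-0.084), Nanog (3.16), Zfp42 (3.96), H19 (0.35), Atp5g1 (-0.066), Hoxc10 (-0.17) and Kdr (0.28). In the ISML_first libraries alone Pou5f1 lay at -0.99. With a library left out the values crossed 0 for Hoxb1 (-0.10 to 0.13), Hoxb2 (-0.052 to 0.20), Hoxb3 (-0.011 to 0.24), Hoxb4 (-0.20 to 0.082), Hoxb7 (-0.16 to 0.31), Pou5f1 (-0.98 to 0.58), Nanog (-1.98 to 0.47), Zfp42 (-2.14 to 0.66), H19 (-0.30 to 0.11), Atp5g1 (-0.062 to 0.11), Hoxc10 (-0.45 to 1.09) and Kdr (-1.67 to 0.31). Depth limits the low genes most: the Ins values of Mir196a-1, Sim2 and Hoxb13 rest on 0 to 29 counts a library.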
